A study of Mus musculus with 4 samples.

Results

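The positive arm of the circadian clock and the loop that feeds back on it were followed through 8 genes in the mouse heart. They were Arntl, Clock and Npas2 (the activators), Nr1d1, Nr1d2 and Rora (the REV-ERB and ROR receptors), and Bhlhe40 and Bhlhe41 (E-box repressors). They were taken by symbol, and all 8 were found among the 23420 genes of the count files. The data are polyadenylated RNA from 4 libraries of a single group, labelled as wild-type C57BL/6J mice, male and 12 weeks old, with no treated or control group. The tissue label names the whole heart, whereas the protocol states that the frozen apex of the ventricles was used. The libraries are called hearts 1 to 4 by the number in their titles, although no label states that each came from its own animal. The p-values for spread therefore concern the spread between these samples, part of which may be technical, against that of genes of like abundance. Those for gene pairs ask whether the mean log2 ratio over these samples departs from equal counts. The time of day at which the hearts were taken is not given in the sources used here.

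The mammalian clock is a transcriptional loop. The proteins of Clock or of its relative Npas2 pair with that of Arntl (BMAL1), bind E-boxes and switch on the Period and Cryptochrome genes, Nr1d1, Nr1d2, Bhlhe40, Bhlhe41 and outputs such as Dbp. The REV-ERB proteins of Nr1d1 and Nr1d2 repress, and the ROR proteins activate, genes that carry a ROR element (RORE), Arntl among them, while the proteins of Bhlhe40 and Bhlhe41 (DEC1 and DEC2) compete for E-boxes. In many mammalian tissues the RNAs of Arntl and Nr1d1 peak at nearly opposite times of day. In heart muscle this clock is known for setting daily rhythms in metabolism and in ion channel genes.

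The promoter windows of 3 members are shown because they hold the kinds of element on which the loop runs. Windows of 300 bases, 250 before and 50 from the start site on, came from RefSeq on GRCm38.p6 and were found for 7 of the 8 members (10 windows), all but Bhlhe40. Both strands were searched for the E-box CACGTG, its variant CACGTT, the RORE consensus and the hexamer AGGTCA, which overlaps the RORE. Capitals mark the matches. The windows are Arntl at chr7:113207261-113207560 on the plus strand, Bhlhe41 at chr6:145865371-145865670 on the minus strand and Nr1d1 at chr11:98775328-98775627 on the minus strand.
Arntl: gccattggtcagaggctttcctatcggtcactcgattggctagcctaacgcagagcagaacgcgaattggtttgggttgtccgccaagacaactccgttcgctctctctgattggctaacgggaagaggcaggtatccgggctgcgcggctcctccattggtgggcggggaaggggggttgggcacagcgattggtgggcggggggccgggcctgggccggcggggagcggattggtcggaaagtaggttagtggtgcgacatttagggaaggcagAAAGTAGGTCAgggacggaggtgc
Bhlhe41: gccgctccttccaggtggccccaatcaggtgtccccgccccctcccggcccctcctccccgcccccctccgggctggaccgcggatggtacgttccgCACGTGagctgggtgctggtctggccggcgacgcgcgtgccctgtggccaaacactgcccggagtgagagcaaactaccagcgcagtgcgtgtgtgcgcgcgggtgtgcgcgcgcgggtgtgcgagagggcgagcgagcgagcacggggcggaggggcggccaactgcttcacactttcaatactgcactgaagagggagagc
Nr1d1: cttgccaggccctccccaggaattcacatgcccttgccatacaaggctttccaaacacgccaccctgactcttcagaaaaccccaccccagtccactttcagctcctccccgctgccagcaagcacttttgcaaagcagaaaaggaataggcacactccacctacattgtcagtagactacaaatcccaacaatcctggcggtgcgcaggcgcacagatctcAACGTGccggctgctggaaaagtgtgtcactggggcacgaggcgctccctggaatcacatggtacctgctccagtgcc
Of 32544 promoter windows of this length, 0.384% held a RORE, 7.17% the E-box CACGTG, 4.71% the variant CACGTT and 16.2% the hexamer AGGTCA. The Arntl window, 1 of its 2, held a RORE that begins at base 27 from the start site. Bhlhe41 held an E-box that begins 153 bases before its start site, and Nr1d1 the variant E-box, on the opposite strand, 28 bases before. The hexamer also stood in the window of Nr1d2 and in 1 of the 3 windows of Clock. A match is a description of the letters in this window.

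Depth ran from 10523709 gene counts in heart 3 to 15359296 in heart 4, and levels are given as counts per 1000000 gene counts (CPM). A gene with 0 counts may still stand at up to 0.285 CPM in heart 3 and 0.195 CPM in heart 4. Sex-linked transcripts set the hearts apart although all 4 are labelled male. Xist had 5, 1897, 1806 and 19 counts in hearts 1 to 4, and the Y-linked Ddx3y 341, 0, 1 and 437. Kdm5d, Eif2s3y and Uty likewise had 0 or 1 counts in hearts 2 and 3, against 43 to 201 in hearts 1 and 4. Hearts 2 and 3 thus went against their label, and results are also given without them. The 6 heart muscle markers examined were all at 1 CPM or more (83403 to 94252 CPM in sum), whereas the 3 atrial markers summed to 2.67 to 4.02 CPM. Markers of fibroblasts (609 to 658 CPM), endothelium (914 to 948 CPM) and macrophages (98.7 to 125 CPM) were present at lower sums. In this bulk RNA, fewer cells of a type and less RNA per cell cannot be told apart.

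Arntl, the required partner in the activating complex (chromosome 7, 113207465 to 113314126, plus strand), was the least abundant of the 8 genes. It had 16, 17, 19 and 26 counts in hearts 1 to 4, or 1.11, 1.22, 1.81 and 1.69 CPM, a mean of 1.46 ± 0.343 CPM (SD, n = 4). The exact Poisson limits of 95%, which cover counting error only, ran from 0.635 to 1.80 CPM in heart 1 and from 1.09 to 2.82 CPM in heart 3, so the lowest and highest hearts could not be separated at this depth. Of the 12358 genes tested, 4.10% had a lower mean CPM than Arntl, and 1.498% of those with a known exon length had a lower level per kilobase.

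Clock (chromosome 5, 76209868 to 76304792, minus strand), which encodes the partner of BMAL1, was far more abundant. Its levels were 32.1, 24.4, 30.5 and 32.4 CPM in hearts 1 to 4, a mean of 29.9 ± 3.73 CPM (SD, n = 4). Heart 2 was the low one, with Poisson limits of 21.9 to 27.2 CPM that stayed below those of heart 1 (29.3 to 35.2 CPM). Npas2, which encodes the alternative partner (chromosome 1, 39193731 to 39363236, plus strand), had 32, 39, 20 and 40 counts, or 2.22, 2.80, 1.90 and 2.60 CPM, a mean of 2.38 ± 0.402 CPM (SD, n = 4), with limits that overlapped among all hearts. Clock counts were 20.3-fold those of Arntl and 12.4-fold those of Npas2, as geometric means over the hearts. Per kilobase of exon, with all annotated exons of a gene merged as its length, the folds were 11.1 and 4.33. That length need not match the transcripts present or the annotation used for counting. Npas2 in turn stood 2.57-fold above Arntl per kilobase and above it in 4 of 4 hearts by counts, by 1.05-fold in heart 3 and 1.53 to 2.26-fold in the others. Arntl2, the paralog of Arntl, had 16, 8, 14 and 12 counts. Arntl exceeded it by 1.56-fold in counts and 1.18-fold per kilobase, a log2 ratio of counts of 0.64 ± 0.52 (SD, n = 4), and was not higher in heart 1, where the counts were equal (exact sign-flip permutation p = 0.25).

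**Figure D1:**
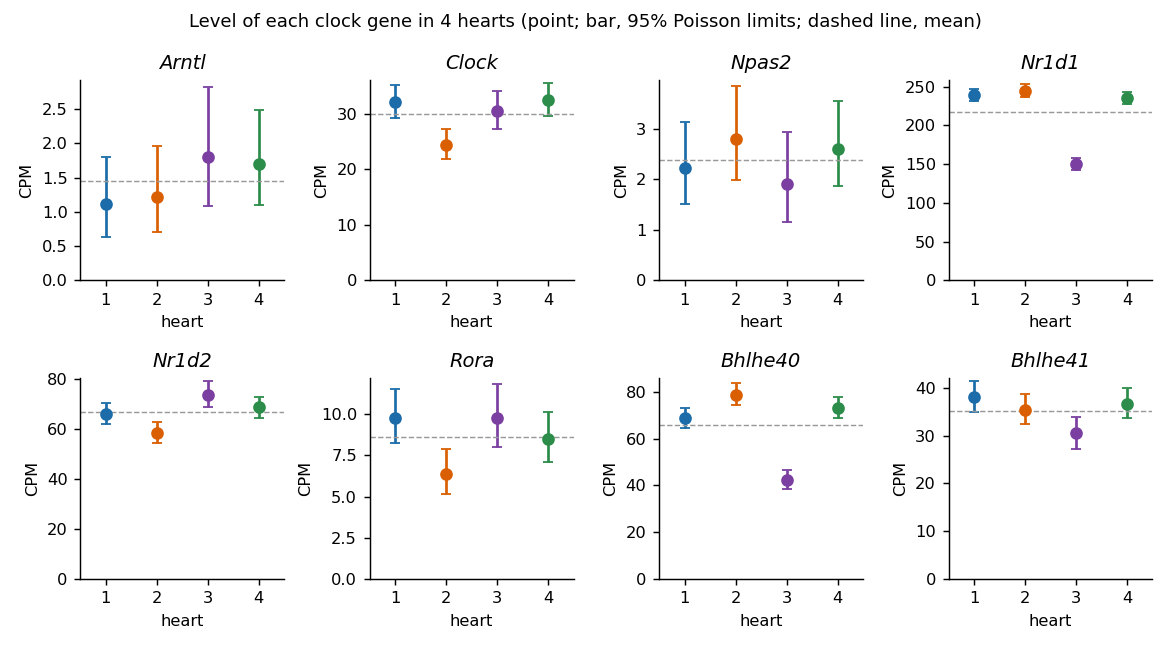
CPM of the 8 clock genes (vertical axes from 0) in hearts 1 to 4 (horizontal axes), with exact 95% Poisson limits as bars and the mean over hearts as a dashed line. Nr1d1 and Bhlhe40 stand low in heart 3, at 149.9 and 42.4 CPM, while the bars of Arntl and Npas2 overlap among all hearts.

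The REV-ERB gene Nr1d1 (chromosome 11, 98767932 to 98775333, minus strand) led the 8 genes. It had 239, 245, 149.9 and 235 CPM in hearts 1 to 4, a mean of 217 ± 45.1 CPM (SD, n = 4), above 95.4% of tested genes. Hearts 1, 2 and 4 lay close together and heart 3 was low, with Poisson limits of 143 to 158 CPM. The level in heart 3 was 0.625 times the mean of the other hearts. Exons of Nr1d1 share 263 bases (8.55%) with Thra, a thyroid hormone receptor gene on the opposite strand, and the libraries do not keep the strand. Thra had 100.3 CPM in heart 3 and 109 to 112 CPM in the others. The part of reads from the shared bases in the level of Nr1d1 was not tested. For the same reason of strand, reads of Arntl (0.439% of exon bases) and Rora (0.627%) cannot be told apart from those of antisense genes that were not analysed here.

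Nr1d2, which encodes the second REV-ERB protein (chromosome 14, 18204054 to 18239127, minus strand), took another order. Its levels were 66.1, 58.5, 73.7 and 68.6 CPM in hearts 1 to 4, a mean of 66.7 ± 6.35 CPM (SD, n = 4), with heart 3 the highest. Nr1d1 exceeded Nr1d2 in counts by 2.03-fold in heart 3 and by 3.62, 4.19 and 3.42-fold in hearts 1, 2 and 4. The log2 ratio was 1.68 ± 0.45 (SD, n = 4), whereas counting error alone would give it an SD of 0.056.

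Rora, which encodes the activating receptor ROR alpha (chromosome 9, 68653786 to 69388246, plus strand), was low, at 9.78, 6.39, 9.79 and 8.53 CPM in hearts 1 to 4 and 8.62 ± 1.60 CPM on average (SD, n = 4). Heart 2 was lowest, with limits of 5.14 to 7.87 CPM. Its paralog Rorb, which encodes ROR beta, had 2.15, 2.37, 3.04 and 3.19 CPM. Rora exceeded Rorb by 3.17-fold in counts and 2.69-fold per kilobase. Nr1d1 exceeded Rora by 24.97-fold in counts and 106-fold per kilobase.

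Bhlhe40 (chromosome 6, 108660629 to 108666925, plus strand), which encodes the repressor DEC1, had 68.8, 78.8, 42.4 and 73.2 CPM in hearts 1 to 4, a mean of 65.8 ± 16.1 CPM (SD, n = 4). Heart 3 was low, at 0.576 times the mean of the others, and its Poisson limits (38.5 to 46.5 CPM) stayed below those of each other heart. An antisense gene, 0610040F04Rik, shares 2.51% of its exon bases and had 0 to 4 counts. Bhlhe41 (145858243 to 145865558 on the minus strand of the same chromosome), which encodes DEC2, had 38.1, 35.5, 30.5 and 36.8 CPM, a mean of 35.2 ± 3.32 CPM (SD, n = 4), with heart 3 again the lowest but at 0.8291 times the mean of the others. In GENCODE M21, 19.0% of its exon bases are shared with a gene on the other strand that was not analysed here. Bhlhe40 exceeded Bhlhe41 by 1.39-fold in heart 3 and by 1.80, 2.22 and 1.99-fold in hearts 1, 2 and 4, and by 2.60-fold per kilobase over the hearts.

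Per kilobase of exon the order of the 8 levels was Nr1d1 (70.6 CPM per kilobase), Bhlhe40 (14.0), Nr1d2 (12.3), Bhlhe41 (5.24), Clock (2.18), Rora (0.660), Npas2 (0.497) and Arntl (0.194). The ranges over hearts of neighbours in that order overlapped for Bhlhe40 with Nr1d2 and for Rora with Npas2. The other neighbours did not overlap in any heart. Of the 15 gene pairs compared within hearts, some of them with genes outside the 8 such as Dbp, Arntl2 and Rorb, 14 had the same gene higher in 4 of 4 hearts. These 14 had the smallest exact sign-flip permutation p that 4 hearts allow, 1 in 8 (two-sided), and 0.134 after Benjamini-Hochberg adjustment over 15 pairs. No pair could therefore pass 0.05.

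**Figure D2:**
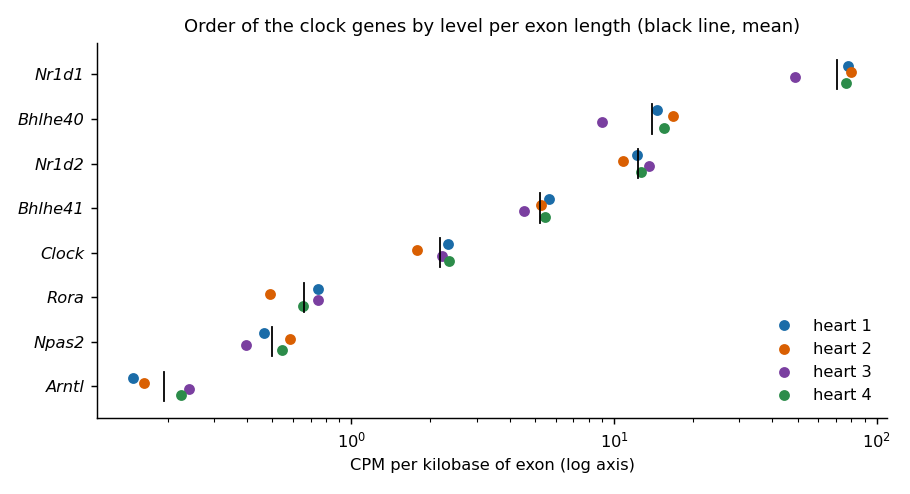
Level of each clock gene per kilobase of exon (horizontal log axis, CPM per kilobase) in the 4 hearts (coloured points, rows by gene), with the mean as a black line. Nr1d1 lies highest at 70.6 and Arntl lowest at 0.194 CPM per kilobase.

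Whether a gene varied between hearts more than genes of like abundance was tested over the whole table with edgeR's quasi-likelihood fit. The variance ratio compares a gene's spread with the trend, and a Benjamini-Hochberg adjusted p under 0.05 counted as a call. None of the 8 genes was called (0 of 8, against 55 of 12358 tested genes, 0.445%), and limma also gave 0. The dispersion outliers of DESeq2 held 0 of 8 as well, against 1.04% of tested genes. At an unadjusted p under 0.05 there were 2 of 8, against 6.00% of tested genes. These were Bhlhe40 with a variance ratio of 14.4 (adjusted p = 0.167, edgeR) and Nr1d1 with 13.5 (adjusted p = 0.186, edgeR). They ranked 132 and 147 among the tested genes. The ratio was 2.59 for Clock, 2.43 for Rora, 2.22 for Nr1d2, 1.28 for Bhlhe41, 0.801 for Arntl and 0.556 for Npas2. The median log2 variance ratio was 1.22 over the 8 genes and -0.23 over all tested genes. The 8 genes were chosen with earlier results of these data known, so these figures are descriptions.

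The spread of Nr1d1 and Bhlhe40 came with heart 3. Without heart 3 their adjusted p were 0.994 and 0.994 (edgeR, against 0.315% of tested genes called), and without hearts 2 and 3 they were 0.990 and 0.984. Heart 3 had already been seen to be low in both, so leaving it out had to narrow their spread. Without hearts 2 and 3 few libraries remained and 0.0486% of tested genes were called, so the lack of a call there says little. Without heart 2, Nr1d1 was called (adjusted p = 0.0349, edgeR, against 0.559% of tested genes) and Bhlhe40 was not (0.0689). With no filter on low counts both were called, at 0.00389 and 0.00313 (edgeR), against 1.48% of tested genes. Over all alternatives the adjusted p ran from 0.00389 to 0.994 for Nr1d1 and from 0.00313 to 0.994 for Bhlhe40. Heart 3 had the fewest counts and the highest heart muscle marker sum (94252 CPM, against 83403 to 84032 CPM in the others, 6 of 6 markers at 1 CPM or more). It also had the lowest red cell marker sum (7.22 CPM, against 15.2 to 17.1 CPM). That sum is of Alas2 alone, since 2 of 3 red cell markers had 0 counts in every heart. Xist was high in hearts 2 and 3. The part of these differences in the result was not tested.

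**Figure D3:**
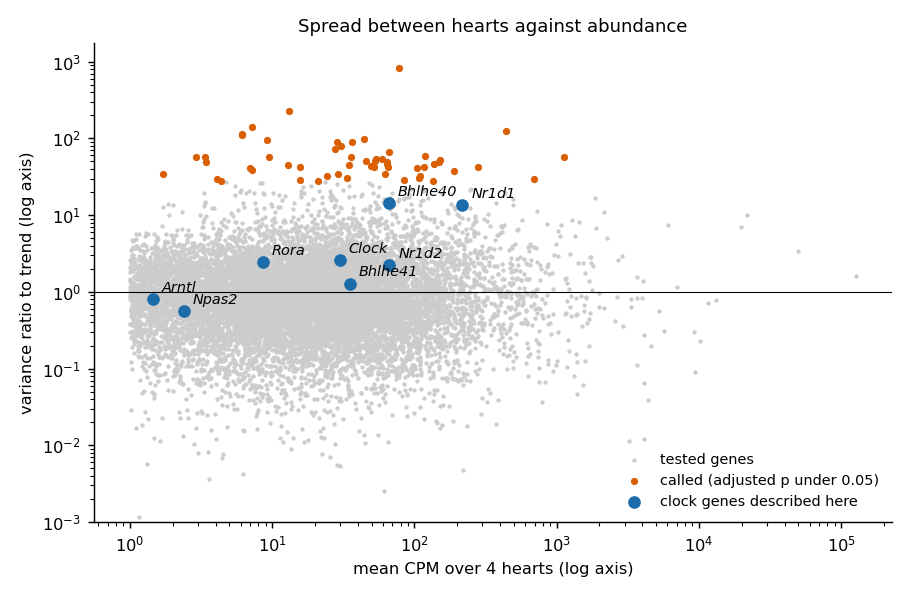
Variance ratio to the trend (vertical log axis) against mean CPM over 4 hearts (horizontal log axis) for the tested genes, with called genes in orange and the 8 clock genes in blue. Bhlhe40 (14.4) and Nr1d1 (13.5) lie high in the grey cloud of genes that were not called and below the called genes.

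Across hearts the 8 genes did not move as a block. Heart 3 was the lowest for 4 of them (Npas2, Nr1d1, Bhlhe40 and Bhlhe41), against 33.4% of tested genes, and the highest for 3 (Arntl, Nr1d2 and Rora), against 22.9%. The counts of Npas2 and Arntl are too low to place a heart, and Rora stood at 9.79 CPM in heart 3 and 9.78 CPM in heart 1, which cannot be ranked. A level in heart 3 of at most 0.7 times the mean of the others was seen in 2 of 8, against 5.30% of tested genes, and a highest level at least 1.5 times the lowest in 4 of 8 (Arntl, Nr1d1, Rora and Bhlhe40), against 19.7%. These thresholds were chosen after the values were seen.

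Patterns over the hearts were compared by the root mean square distance between centred log2 CPM, among 9607 genes that are no members and reached 5 CPM. Nearest to Nr1d1 were Agfg2 (0.012 on the log2 scale), Sox18 (0.026), Trabd2b (0.034), 9930104L06Rik (0.038) and Cox11 (0.051). Nearest to Bhlhe40 were Arl4d (0.024), Nxn (0.060), Celsr3 (0.063), 9930104L06Rik (0.072) and Ccdc149 (0.073). With all genes of at least 1 CPM as candidates, 2 of these 5 remained among the nearest to Nr1d1 and 1 of 5 among the nearest to Bhlhe40. The distance between Bhlhe40 and Nr1d1 was 0.078, and 28 of the 9607 genes lay nearer to Nr1d1 and 7 nearer to Bhlhe40 than that. Dbp, which encodes a PAR bZIP activator switched on through E-boxes, had 101.9, 112, 75.5 and 104.0 CPM and stood 0.090 from Nr1d1, with 46 genes nearer. Apart from Bhlhe40, the other genes named as switched on by the activators lay farther from Nr1d1, with 567 or more genes nearer. Bhlhe41 stood at 0.184, Per2 at 0.290, Per3 at 0.330, Cry2 at 0.347, Nr1d2 and Cry1 at 0.394 and Per1 at 0.665. Nr1d1 exceeded Dbp by 2.35, 2.18, 1.98 and 2.26-fold in hearts 1 to 4, a log2 ratio of 1.13 ± 0.10 (SD, n = 4). With 4 hearts such distances describe these libraries and do not show a shared control.

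**Figure D4:**
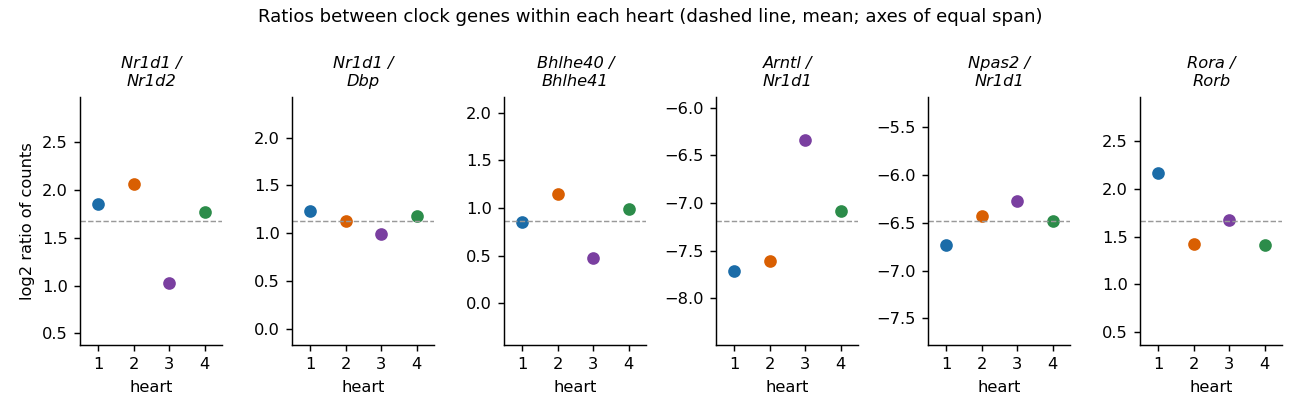
Log2 ratio of counts between pairs of clock genes (vertical axes of equal span) in hearts 1 to 4, with the mean as a dashed line. Nr1d1 over Nr1d2 spreads widely (SD 0.45), and Nr1d1 over Dbp little (SD 0.10).

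Arntl and Npas2 were scarce beside Nr1d1 in each heart. Nr1d1 exceeded Arntl by 209, 195, 80.9 and 136-fold in counts in hearts 1 to 4, and by 356-fold per kilobase. It exceeded Npas2 by 106, 86.4, 77.0 and 89.1-fold. The heart with the smallest excess was heart 3 in both cases, but both ratios hold Nr1d1, already seen to be low there. The SD of the log2 ratio of Arntl to Nr1d1 was 0.63, with 0.33 from counting error, and that of Npas2 to Nr1d1 was 0.19, with 0.26 from counting error. Nr1d2 exceeded Arntl by 39.8 to 57.8-fold.

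Other genes of the clock and lists of genes linked to it, cardiac and glucocorticoid targets among them, were read from the same fit. Of 48 genes on these lists, 46 were tested and 5 were called (edgeR), against 0.445% of tested genes. By list, 2 of 6 negative arm genes, 1 of 9 cardiac targets and 2 of 5 glucocorticoid targets were called. The other lists held no call. Of the 5, Per1 and Gm129 belong to the negative arm and Fkbp5 and Tsc22d3 to the glucocorticoid targets, and these 4 are described here. The count was 5 by limma, 8 as DESeq2 outliers (against 1.04% of tested genes) and 0 with a non-robust prior in edgeR. An unadjusted p under 0.05 in the fit with a robust prior was found for 19 of the 46, against 6.00% of tested genes. Of these 19, 6 were cardiac targets and 5 glucocorticoid targets, so the share is not one of the clock loop alone. The lists were chosen with earlier results of these data known, so these shares describe the lists and are no independent support. Gm129, now called Ciart, a repressor of the CLOCK and BMAL1 complex, had 47.0, 15.3, 10.8 and 48.2 CPM in hearts 1 to 4 (adjusted p = 0.00626, edgeR), low in hearts 2 and 3 alike. Per1, a Period repressor that glucocorticoids also induce, had 201, 73.4, 138 and 196 CPM (adjusted p = 0.0132, edgeR), lowest in heart 2. Fkbp5 had 79.0, 25.2, 50.5 and 81.8 CPM (adjusted p = 0.0129) and Tsc22d3 107, 49.0, 76.2 and 106 CPM (0.0450), both in edgeR's fit. Without heart 2, Per1 (0.122), Fkbp5 (0.0969) and Tsc22d3 (0.319) were not called. Heart 2 was the lowest for each of these genes, so leaving it out had to narrow their spread. Tsc22d3 was not called without heart 1 (0.0756) or heart 4 (0.0671) either. Without hearts 2 and 3 the count was 0, against 0.0486% of tested genes, and each of the 5 had an adjusted p of 0.984 or more (edgeR).

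None of these 4 patterns was that of Nr1d1. In heart 2 Nr1d1 and Bhlhe40 had their highest values, 245 and 78.8 CPM, whereas Per1, Fkbp5 and Tsc22d3 had their lowest. The Poisson limits of heart 2 overlapped those of hearts 1 and 4 for Nr1d1 and of heart 4 for Bhlhe40. Gm129 was lowest in heart 3, as Nr1d1 was, at 10.8 CPM, but had only 15.3 CPM in heart 2. The difference between the patterns was not tested.

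In the rest of the negative arm, made up of the repressors that close the loop, no gene was called. Per2 had 73.4, 49.9, 52.3 and 70.8 CPM, Per3 68.6 to 73.5 CPM, Cry1 9.44 to 11.4 CPM and Cry2 52.3 to 64.6 CPM. Of the 4 PAR bZIP genes 0 were called. Tef stood at 240 to 281 CPM and Hlf at 38.8 to 49.2 CPM. Nfil3, which encodes a repressor at the sites that DBP activates, had 7.15, 8.19, 11.9 and 8.27 CPM and was highest in heart 3, where Dbp was lowest. Its adjusted p was 0.911 (edgeR).

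The lists of corepressors, clock modifiers and relatives of the activators held no call. The corepressors that REV-ERB proteins recruit included Ncor1 at 214 ± 7.60 CPM, with 5 of 5 genes tested. The clock modifiers, 11 of 12 tested, were led by the deubiquitinase gene Usp2 at 269 ± 39.9 CPM and by the casein kinase gene Csnk2a1 at 102 ± 3.69 CPM. Relatives of the activators included Epas1 at 606 ± 14.7 CPM and Arnt at 69.1 ± 5.01 CPM. Among the cardiac targets the triglyceride synthesis gene Dgat2 had 407 ± 60.0 CPM, and among the glucocorticoid targets Zbtb16 had 244 ± 66.8 CPM and Klf9 143 ± 23.3 CPM (SD, n = 4 each). Bdh1, a ketone body enzyme gene and cardiac clock target named after its values were seen, had 67.2, 55.5, 35.9 and 61.5 CPM. It was low in heart 3, as Nr1d1 was, and was not called (adjusted p = 0.187, edgeR).

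**Figure D5:**
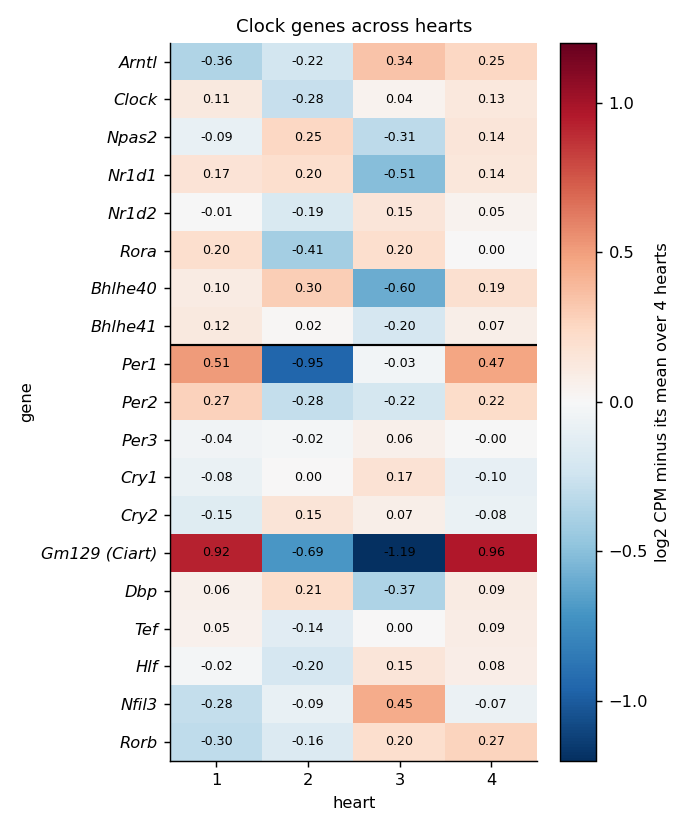
Centred log2 CPM (colour and number, log2 CPM minus its mean over the hearts) of the 8 clock genes, above the line, and of other core clock genes, below it, in hearts 1 to 4 (columns). Heart 3 stands at -0.51 for Nr1d1, -0.60 for Bhlhe40 and -0.37 for Dbp, and at 0.34 for Arntl and 0.45 for Nfil3. The value of Arntl rests on 19 counts. Of the other genes named as switched on by the activators, Nr1d2 stands there at 0.15 and Bhlhe41 at -0.20. Per1 stands at -0.03, Per2 at -0.22, Per3 at 0.06, Cry1 at 0.17 and Cry2 at 0.07.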

How the data were processed

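Whole, unscaled read counts for each gene were deposited by the authors, 1 file a library. Per the submitters' processing notes the build was mm10, and HTSeq, TopHat2 2.0.10, Bowtie2, DESeq and edgeR were among the tools. Which annotation and counting mode were used is not given there. Per the labels' protocols the libraries are single-end and not strand-specific. The 5 rows that name no gene were left out (9.16 ± 0.145% of listed reads, SD, n = 4). CPM is counts per 1000000 gene counts.

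Under R 4.3.3, edgeR 4.0.16 was fitted to the 4 libraries as 1 group, with TMM factors and a robust prior, on genes averaging at least 1 CPM. The ratio of quasi-dispersion to trend was set against F on 3 and 7.42 degrees of freedom, upper tail. The procedure was also run on simulated data, where it missed some of the smaller shifts and made some false calls. Alternatives were limma 3.58.1, DESeq2 1.42.0, other scalings, filters and priors, and subsets of hearts. Ratios within a heart had 0.5 added to each count. Positions and exon lengths are from GENCODE M21 on GRCm38, which mm10 denotes. A length is that of a gene's exons merged over all its annotated transcripts, so levels and folds per kilobase are approximate. Ciart was found under Gm129.

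The members, lists and tests were chosen with earlier results of these data known. Named genes were the 8 members, all negative arm, PAR bZIP and other-form genes, the called and the 2 most abundant genes of the other lists, both genes of each pair, and the 5 genes nearest to the 2 members with the largest variance ratio. Some genes that this rule names are not reported here.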

Additional observations from a re-analysis of the deposited data

Results flagged for a closer look

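In 72 sets of 4 values (levels of the 8 genes and of their lists, and ratios within hearts), the highest or lowest heart was examined for a gap to the nearest other heart that exceeds Dixon's 95% limit as a share of the range. A total of 6 sets passed it, where chance passes about 1 in 20. Nr1d1 did so through its low level in heart 3, with a share of 0.893. Arnt, the dimer partner of several relatives of the activators, was high in heart 3 (0.894), as was Tbl1xr1, a subunit of the corepressor complex (0.8305). Timeless was high in heart 2 (0.928) and Nampt, an enzyme of NAD synthesis, low in it (0.915). Hdac3, the deacetylase of the corepressor complex, was high in heart 4 (0.842), by a small step between 41.7 and 43.8 CPM.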

How the results depend on the processing

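The count of called genes among the 8 was 0 except for 2 with no filter on low counts and 1 without heart 2 (0 to 1 when each heart was left out in turn). Over all genes it was 258 with no filter, 129 as DESeq2 dispersion outliers, 10 with a non-robust prior and 6 without hearts 2 and 3, against 55 as reported and 39 to 69 when each heart was left out. For the clock and target lists together it was 10 with no filter, 8 as DESeq2 outliers, 0 with a non-robust prior and 0 without hearts 2 and 3. As reported it was 5, and 4 to 5 with each heart left out. The cause was not tested. With Rn45s out of the total, the mean level was 34.2 CPM for Clock, 76.4 CPM for Nr1d2 and 40.4 CPM for Bhlhe41, more than an SD above the reported means. No ratio within a heart turned round per kilobase of exon or with a heart left out. Counting error limits what can be said of Arntl, Npas2 and Arntl2. No paired analysis was possible because the series holds 1 group.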
